A study of Mus musculus with 9 samples.

Results

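The primary (azurophil) granule genes examined here are Mpo, Elane, Prtn3, Ctsg, Ms4a3, Fcnb, Lyz2 and Serpinb1a. These 8 genes were chosen by name. Each was read from the probe set whose platform symbol names it alone, and where several did, from the probe set with the highest mean over all arrays. They are 8 of 18193 genes with such a probe set, and all 8 were among the 13078 genes tested. CD11b+ splenocytes of C57BL/6 mice were profiled on Affymetrix MOE430 arrays. The threat group held 6 animals that had met repeated social threat, with an array for each animal, and the control group held 6 animals kept without threat, whose RNA went onto 3 arrays as pools of 2 animals each. In both groups spleen cells that adhered were selected with magnetic beads for CD11b, and the labels call the selected cells monocytes. The comparison asks how expression differs between threat and control animals. The labels give no sex, age or length of exposure, and no batch. A control pool averages its 2 animals, so the spread of the control arrays is that between pools.

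Primary granules are the first granules that a neutrophil precursor makes, at the promyelocyte stage, and their proteins stay stored in the mature cell after the genes have been switched off. They carry myeloperoxidase, which makes hypochlorous acid from hydrogen peroxide and chloride, and a family of serine proteases that digest microbes and matrix. RNA of the myeloperoxidase and serine protease genes is therefore a known mark of early granulocyte precursors. In the mouse such precursors occur in the bone marrow and, during stress or infection, in the spleen. Of the 8 genes, Ms4a3 and Serpinb1a encode no granule content: Ms4a3 is a membrane protein that marks granulocyte and monocyte progenitors in the mouse, and Serpinb1a is a cytosolic inhibitor of the granule proteases.

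Prtn3 and Elane are neighbouring genes on chromosome 10, with no protein-coding gene between them in the RefSeq table. Their promoters are shown because these genes rose together, beside those of Mpo and Ctsg, which were also among the largest rises, and of Fcnb, which rose less. Each sequence is the 150 bases upstream of the RefSeq transcription start in mouse build GRCm38.p6, written in the direction of transcription. Capitals mark matches to 5 motifs, searched on both strands. GAGGAAG is a core of ETS factors such as PU.1. CAACGG is a MYB motif. CTATAAG is a TATA-like box. TTGCNNAA is a C/EBP motif. TGTGGT is a RUNX motif. The RUNX and C/EBP matches lie on the strand opposite to the one printed.
Prtn3: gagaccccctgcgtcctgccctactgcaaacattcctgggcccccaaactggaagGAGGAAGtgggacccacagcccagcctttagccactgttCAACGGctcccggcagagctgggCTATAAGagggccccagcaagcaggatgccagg
Elane: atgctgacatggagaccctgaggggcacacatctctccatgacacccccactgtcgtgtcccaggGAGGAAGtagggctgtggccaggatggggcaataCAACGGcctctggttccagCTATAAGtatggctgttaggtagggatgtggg
Mpo: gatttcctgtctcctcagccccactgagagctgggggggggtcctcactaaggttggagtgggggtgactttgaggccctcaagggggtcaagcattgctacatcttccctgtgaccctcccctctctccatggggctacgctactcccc
Ctsg: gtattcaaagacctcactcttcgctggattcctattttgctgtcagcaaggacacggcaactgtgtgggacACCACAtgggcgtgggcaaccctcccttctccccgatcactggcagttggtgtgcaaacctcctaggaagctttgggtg
Fcnb: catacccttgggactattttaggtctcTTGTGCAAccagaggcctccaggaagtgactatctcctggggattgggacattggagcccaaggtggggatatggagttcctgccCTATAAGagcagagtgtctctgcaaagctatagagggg
The windows lie at chr10:79879517-79879666 (plus strand) for Prtn3, chr10:79886162-79886311 (plus strand) for Elane, chr11:87793634-87793783 (plus strand) for Mpo, chr14:56102575-56102724 (minus strand) for Ctsg and chr2:28084879-28085028 (minus strand) for Fcnb.

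The Prtn3 and Elane windows held the same 3 motifs in the same order and on the same strand. Counted back from the transcription start, GAGGAAG spanned -95 to -89 in Prtn3 and -85 to -79 in Elane. CAACGG spanned -56 to -51 in Prtn3 and -51 to -46 in Elane, and CTATAAG spanned -33 to -27 in Prtn3 and -32 to -26 in Elane. The marked matches do not overlap each other. Of 32851 promoter entries in the table, 6.85% held GAGGAAG, 2.73% held CAACGG and 0.901% held CTATAAG in the same 150 bases. All 3 together were found in 2 entries (0.00609%), which are Prtn3 and Elane. The letters of these motifs were chosen after those promoters had been read, so this count is a description. PU.1, MYB and C/EBP are known from the mouse to act at the Elane promoter. Fcnb held CTATAAG and a match to TTGCNNAA (5.46% of entries), and Ctsg and Lyz2 held a match to TGTGGT (8.4% of entries). None of the 5 motifs was matched in the Mpo or Ms4a3 window, which says only that these letters are not there. In all, 7 of the 8 genes had a promoter entry.

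All 8 genes were higher in threat animals. In limma's fit over 13078 genes with Benjamini-Hochberg adjustment, 8 of 8 rose and 0 fell, where 45.8% of all genes tested passed in either direction, 23.8% rising and 22.0% falling. Lyz2 passed narrowly, and without it the count is 7. A rise of at least 2-fold was reached by 6 of the 8, against 1.74% of all genes tested, and a fall of that size was reached by none of the 8, against 2.23%. The groups did not overlap for any of the 8, with every threat animal above every control pool, and the same held for 21.5% of all genes tested, while 20.3% lay wholly below. The median difference of the 8 was 1.88 on the log2 scale, against 0.029 for all genes tested. In bulk RNA such as this, more cells of a type and more RNA per cell cannot be told apart.

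**Figure D1:**
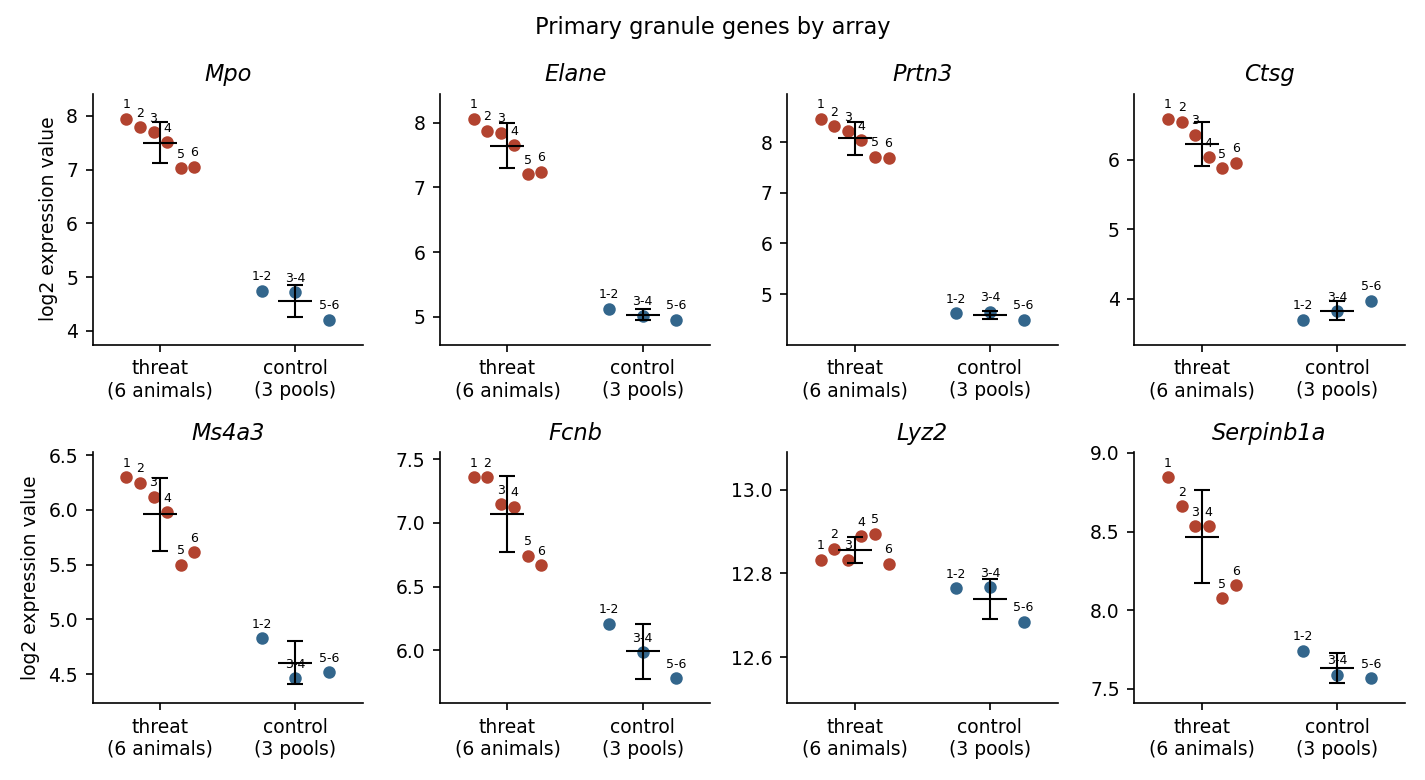
Log2 expression value of each of the 8 genes on each array, with threat animals in red and control pools in blue, numbered as in the labels, on an axis of its own for each gene that does not start at 0. Bars show the mean and SD; every threat animal lies above every control pool, by the widest margin in Prtn3 (3.04) and by 0.056 in Lyz2.

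Myeloperoxidase and the serine proteases made up the upper end. Prtn3 encodes proteinase 3. Its log2 value ran from 7.688 over a median of 8.122 to 8.462 in the 6 threat animals, and was 4.626, 4.649 and 4.498 in the 3 control pools. The difference was 3.48 (SE 0.15, adjusted p = 3.18e-09), an 11.2-fold rise at rank 4 of 13078 genes by size of rise. The threat animal with the lowest value was still 3.04 above the highest control pool. Elane encodes neutrophil elastase. Its values were 7.203 to 8.065 in threat animals, with a median of 7.749, and 5.126, 5.014 and 4.956 in control pools. It rose by 2.62 (SE 0.17, adjusted p = 7.75e-08), or 6.13-fold, and took rank 13.

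Mpo, the myeloperoxidase gene, had values from 7.029 to 7.951 in threat animals with a median of 7.603, and 4.747, 4.720 and 4.211 in control pools. It rose by 2.95 (SE 0.20, adjusted p = 1.29e-07), or 7.71-fold, at rank 9. The gap between the groups was 2.28, about as wide as that of Elane (2.08), while pool 5-6 stood below the other control pools. Ctsg encodes cathepsin G, a protease with chymotrypsin-like activity. Its values ran from 5.876 to 6.591 in threat animals with a median of 6.195, and were 3.701, 3.819 and 3.973 in control pools. The rise was 2.40 (SE 0.15, adjusted p = 7.46e-08), or 5.26-fold, at rank 16. These 4 genes thus took ranks 4, 9, 13 and 16 among the differences of all genes tested.

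**Figure D2:**
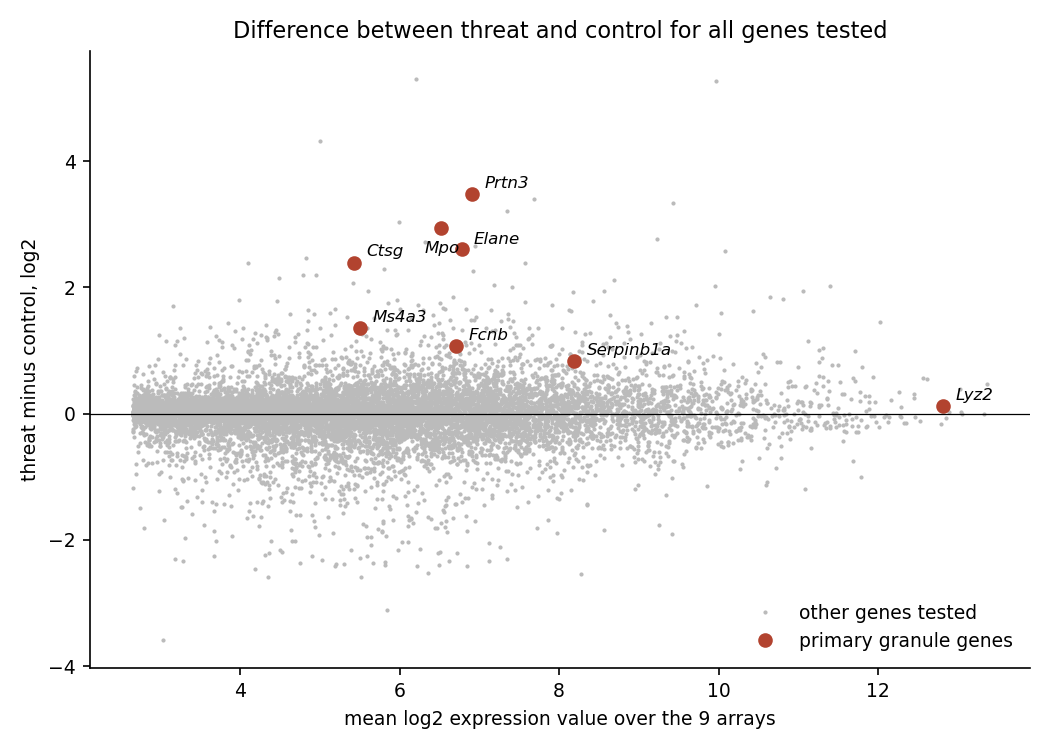
Difference between threat and control (log2, vertical axis) against the mean log2 expression value over the 9 arrays (horizontal axis) for the 13078 genes tested, in grey, with the 8 primary granule genes in red. Prtn3, Mpo, Elane and Ctsg lie between 2.40 and 3.48, and Lyz2 lies near 0 at the right end.

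The remaining 4 genes rose less. Ms4a3 had values of 5.499 to 6.299 in threat animals, with a median of 6.048, and of 4.829, 4.463 and 4.519 in control pools. It rose by 1.36 (SE 0.17, adjusted p = 2.49e-05), or 2.56-fold. Fcnb encodes ficolin B, a lectin of the complement system that binds sugars on microbes. Its values were 6.670 to 7.359 in threat animals, with a median of 7.137, and 6.208, 5.985 and 5.783 in control pools. The rise was 1.08 (SE 0.15, adjusted p = 8.91e-05), or 2.11-fold, with a gap of 0.46 between the groups.

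Serpinb1a, whose product inhibits elastase, proteinase 3 and cathepsin G, had values of 8.076 to 8.846 in threat animals, with a median of 8.533, and of 7.743, 7.590 and 7.568 in control pools. It rose by 0.83 (SE 0.14, adjusted p = 0.000387), or 1.78-fold. A further probe set, whose design may match related transcripts too, ran from 5.288 to 6.212 in threat animals and was 5.512, 5.293 and 5.385 in control pools. There the groups overlapped and the difference was 0.33 (adjusted p = 0.140 with each probe set tested on its own). The probe sets of Serpinb1a thus disagree on the call, and their mean differed by 0.58 (adjusted p = 0.00702). The other 7 genes had a single probe set each.

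Lyz2 encodes lysozyme M, which breaks bacterial cell walls and is made by monocytes and macrophages as well as by neutrophils. Its values were 12.823 to 12.895 in threat animals, with a median of 12.85, and 12.765, 12.767 and 12.685 in control pools. The difference was 0.12 (SE 0.044, adjusted p = 0.0480), or 1.08-fold, and the gap between the groups was 0.056. The call was lost under 16 of 21 alternatives, among them each omission of a single array, so the rise of Lyz2 rests on the settings used. The highest value of the whole table was 13.567, and whether a ceiling of the signal limited the difference was not tested. Lyz1, the neighbour and near-identical paralog of Lyz2, averaged 13.05 ± 0.020 in threat animals (SD, n = 6) and 13.06 ± 0.035 in control pools (SD, n = 3), a difference of -0.0038 (adjusted p = 0.949). These values are from the brightest Lyz1 probe set, whose design may match related transcripts too. Another of that kind averaged 12.14 in threat animals and 12.25 in control pools. Its difference was -0.10 (limma adjusted p = 0.0869 with each probe set tested on its own). The transcript-specific Lyz1 probe set read only 3.382 to 3.448 in threat animals and 3.36 to 3.382 in control pools. Whether the bright Lyz1 probe sets read Lyz2 RNA was not tested. Probes may not separate these paralogs, so both are uncertain as single genes.

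Sizes of change were compared directly through the difference in log2 value between Mpo and another gene on each array. The test was an exact two-sided permutation over all 84 ways to choose 6 of the 9 arrays, adjusted over 6 such comparisons. Mpo rose by 2.83 more than Lyz2, by 2.11 more than Serpinb1a and by 1.87 more than Fcnb (exact p = 0.0119 each, the smallest that 84 divisions can give, adjusted p = 0.0143). It also rose by 1.90 more than the lactoferrin gene Ltf of the secondary granules and by 2.56 more than the calprotectin gene S100a8 (exact p = 0.0119, adjusted p = 0.0143 for each). For these 5 comparisons the threat animals and the control pools did not overlap. Lyz2 carries the limits given above, and S100a8, at 13.126 to 13.196 in threat animals and 12.800, 12.725 and 12.775 in control pools, was also near the highest value of the table. Whether a ceiling of the signal widened those 2 differences was not tested. The sixth gene was Mmp8, a collagenase stored in later granules. Mpo minus Mmp8 was -2.64 ± 0.32 in threat animals (SD, n = 6, range -3.009 to -2.317) and -2.82 ± 0.26 in control pools (SD, n = 3, range -3.115 to -2.637). That is a difference of 0.18 with overlapping groups (exact p = 0.369), which does not show that Mpo and Mmp8 changed alike.

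**Figure D3:**
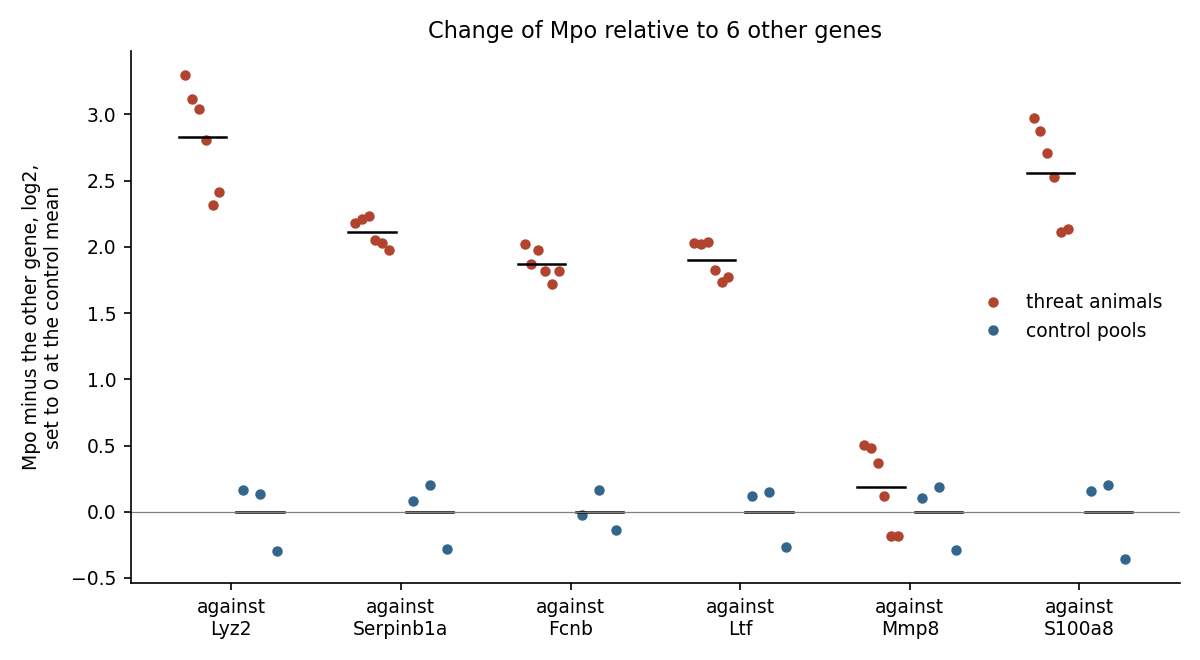
Log2 value of Mpo minus that of each of 6 other genes, shifted so that the control mean is 0, for the 6 threat animals (red) and the 3 control pools (blue), with a line at each group mean. Threat means lie between 1.87 and 2.83 above control for 5 genes without overlap, and 0.18 above control for Mmp8 with overlap.

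Among threat animals, 7 of the 8 genes varied together. Mpo was 7.951, 7.794, 7.693, 7.513, 7.029 and 7.056 in threat animals 1 to 6, a range of 0.92, or 1.90-fold. All 7 were highest in animal 1, and Lyz2 was highest in animal 5. Animals 5 and 6 lay below all the other threat animals in those 7 genes. The SD of Mpo over threat animals was 0.39 and that of Elane 0.35, against a median SD of 0.085 over all genes tested. The SDs of these 7 genes were at or above the 99.5th percentile of all genes tested, from 99.503 for Serpinb1a to 99.908 for Mpo. Lyz2, with an SD of 0.031, was at percentile 3.73.

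Control pools differed less for most of the genes. Prtn3 had an SD of 0.081 and Elane one of 0.086 over the 3 pools, near the median of 0.083 for all genes, at percentiles 48.7 and 52.1. Mpo had an SD of 0.30 (percentile 98.8), Fcnb of 0.21 (percentile 94.5) and Ms4a3 of 0.20 (percentile 92.7). Ctsg (78.4), Serpinb1a (57.8) and Lyz2 (22.0) stood lower. The labels do not explain the animal numbers.

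**Figure D4:**
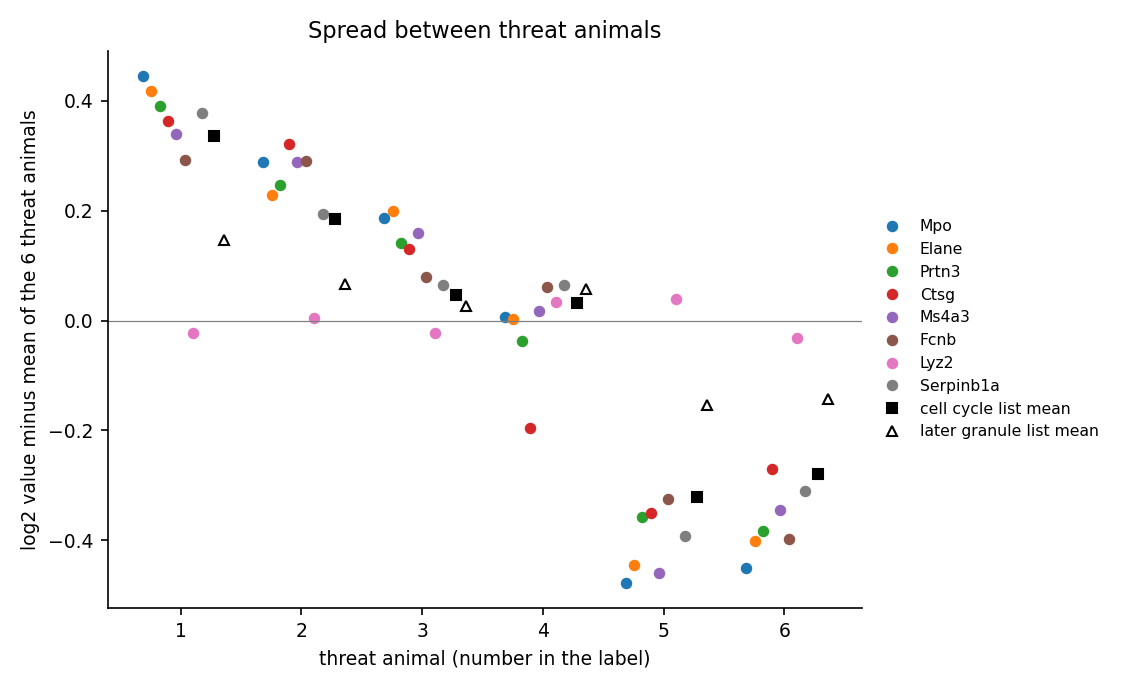
Deviation of each gene from its mean over the 6 threat animals (log2, vertical axis) by animal number, with coloured points for the 8 genes, black squares for the mean of the cell cycle list and open triangles for that of the later granule list. All but Lyz2 lie above 0 in animals 1 to 3 and below 0 in animals 5 and 6.

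The genes whose profile over the 9 arrays lay nearest to that of Mpo were found by the root mean square difference after each gene was centred on its own mean. Elane was the nearest of all genes at 0.195, Prtn3 was in place 4 at 0.278 and Ctsg in place 11 at 0.346. Ms4a3 was in place 80, Fcnb in place 157, Serpinb1a in place 281 and Lyz2 in place 4042. The nearest genes outside the group were Ceacam10 (0.237), Upp1 (0.277), Mmp8 (0.279), Igfbp6 (0.290) and Wfdc21 (0.301). This measure weighs the size of the group difference as well as the order of the arrays. Igfbp6, a binding protein of insulin-like growth factors, was 6.942 to 7.084 in threat animals and 4.377, 4.036 and 3.494 in control pools, so it came near without the spread among threat animals. Upp1, a uridine phosphorylase, rose by 3.21 (SE 0.068, adjusted p = 1.95e-11) and Ceacam10, of the carcinoembryonic antigen family, by 2.66 (SE 0.12, adjusted p = 5.28e-09).

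Other contents of the primary granule moved in both directions. Where 23.8% of all genes tested rose and 22.0% fell, 2 of the 6 tested here were higher and 1 was lower. The median of these 6 genes was 0.080. They are lysosomal enzymes and carriers that most cells make. Gusb, the beta-glucuronidase gene, was 7.984 to 8.140 in threat animals and 7.212, 7.265 and 7.101 in control pools, and it rose by 0.86 (SE 0.054, adjusted p = 6.07e-08). Man2b1, a lysosomal mannosidase, rose by 0.20 (SE 0.047, adjusted p = 0.00386), a direction that turned with other probe sets of the gene (-0.26 where transcript-specific probe sets were preferred). Arsb, an arylsulfatase, fell by 0.31 (SE 0.086, adjusted p = 0.0106), a call lost without control pool 1-2 or 3-4 and for the mean of its probe sets. Npc2, a cholesterol carrier, differed by -0.13 (adjusted p = 0.0568) and was called lower under 7 of 21 alternatives. Prss57, Bpi and Cd63 were not analysed here.

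Genes that activate, pack and release the granule proteases were mostly higher. Of 9 tested, with a median of 0.39, 6 rose and 1 fell, against 23.8% and 22.0% of all genes tested. Ctsc encodes dipeptidyl peptidase I, which cuts the proforms of elastase, proteinase 3 and cathepsin G into active enzymes. It was 10.968 to 11.133 in threat animals and 10.221, 10.340 and 10.102 in control pools, and it rose by 0.82 (SE 0.062, adjusted p = 3.29e-07). Rab27a, a small GTPase of granule release named here after its value was seen, rose by 0.82 (SE 0.12, adjusted p = 8.61e-05). Stxbp2 and Vamp8 act in the fusion of granules with the cell membrane. Stxbp2 rose by 0.49 (SE 0.050, adjusted p = 4.84e-06), as did Vamp8 by 0.45 (SE 0.051, adjusted p = 1.07e-05). Srgn, the proteoglycan that holds proteases in the granule, fell by 0.15 (SE 0.044, adjusted p = 0.0167), a call lost without control pool 3-4.

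Other protease inhibitors, not all of them known for the granule proteases, went in both directions. Of 6 tested genes, 2 were higher and 3 lower, with a median of -0.053. The shares of all genes tested were 23.8% rising and 22.0% falling. Serpinb9 and Serpinb6b encode intracellular serpins. Serpinb9 fell by 1.63 (SE 0.058, adjusted p = 6.90e-10), while Serpinb6b also fell, at -1.94 (SE 0.078, adjusted p = 1.72e-09). Serpinb2, an inhibitor of plasminogen activators, rose by 0.75 (SE 0.10, adjusted p = 4.56e-05), and Slpi, a secreted inhibitor of elastase and cathepsin G, by 0.31 (SE 0.044, adjusted p = 9.40e-05). Serpinb1b and A2m lay below the filter on dim probe sets and were not tested.

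Relatives and chromosomal neighbours of the 8 genes moved in both directions, with 3 of 9 tested higher, 4 lower and a median of -0.13. Across all genes tested, 23.8% rose and 22.0% fell. Gzmb, a granzyme of the serine protease family of Ctsg, averaged 4.37 in threat animals and 6.06 in control pools and fell by 1.69 (SE 0.093, adjusted p = 2.01e-08). Within the family of Ms4a3, Ms4a1, the B cell antigen CD20, fell by 2.52 (SE 0.14, adjusted p = 2.36e-08) and Ms4a7 rose by 0.81 (SE 0.066, adjusted p = 7.32e-07). Lpo, the peroxidase gene next to Mpo, and Ms4a2, next to Ms4a3, lay below the filter with averages of 2.66 and 1.75 in threat animals and 2.65 and 1.57 in control pools.

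Transcription factors of the promyelocyte stage were mostly not higher. Of 9 tested, with a median of -0.18, 1 rose and 5 fell, against 23.8% and 22.0% of all genes tested. Spi1, which encodes PU.1, was 10.338 to 10.484 in threat animals and 9.894, 10.005 and 9.799 in control pools, and it rose by 0.52 (SE 0.056, adjusted p = 7.98e-06). Irf8 and Klf4, which favour the monocyte fate over the granulocyte fate in the mouse, are counted in this list and had its largest falls. Irf8 fell by 1.70 (SE 0.067, adjusted p = 1.38e-09), and Klf4 also fell, at -1.33 (SE 0.057, adjusted p = 2.49e-09). Markers of B cells and dendritic cells fell in the same arrays, with medians of -2.305 and -1.009. The part of such cells in the falls of Irf8 and Klf4 was not tested. The following 3 genes are named after their values were seen. Myb was 4.721 to 5.458 in threat animals and 6.169, 5.948 and 6.169 in control pools, and fell by 0.90 (SE 0.16, adjusted p = 0.000421). Cebpa, required for granulocyte precursors, fell by 0.18 (SE 0.064, adjusted p = 0.0400), a call that 11 of 21 alternatives did not keep, among them the omission of control pool 1-2 or 3-4 or of threat animal 1, 3, 4 or 5. Gfi1, a repressor needed for neutrophil development, differed by 0.022 (adjusted p = 0.775). Cebpb, which acts in emergency granulopoiesis, differed by 0.11 (adjusted p = 0.0706) and was called under 5 of 21 alternatives. Cebpe was not analysed here.

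**Figure D5:**
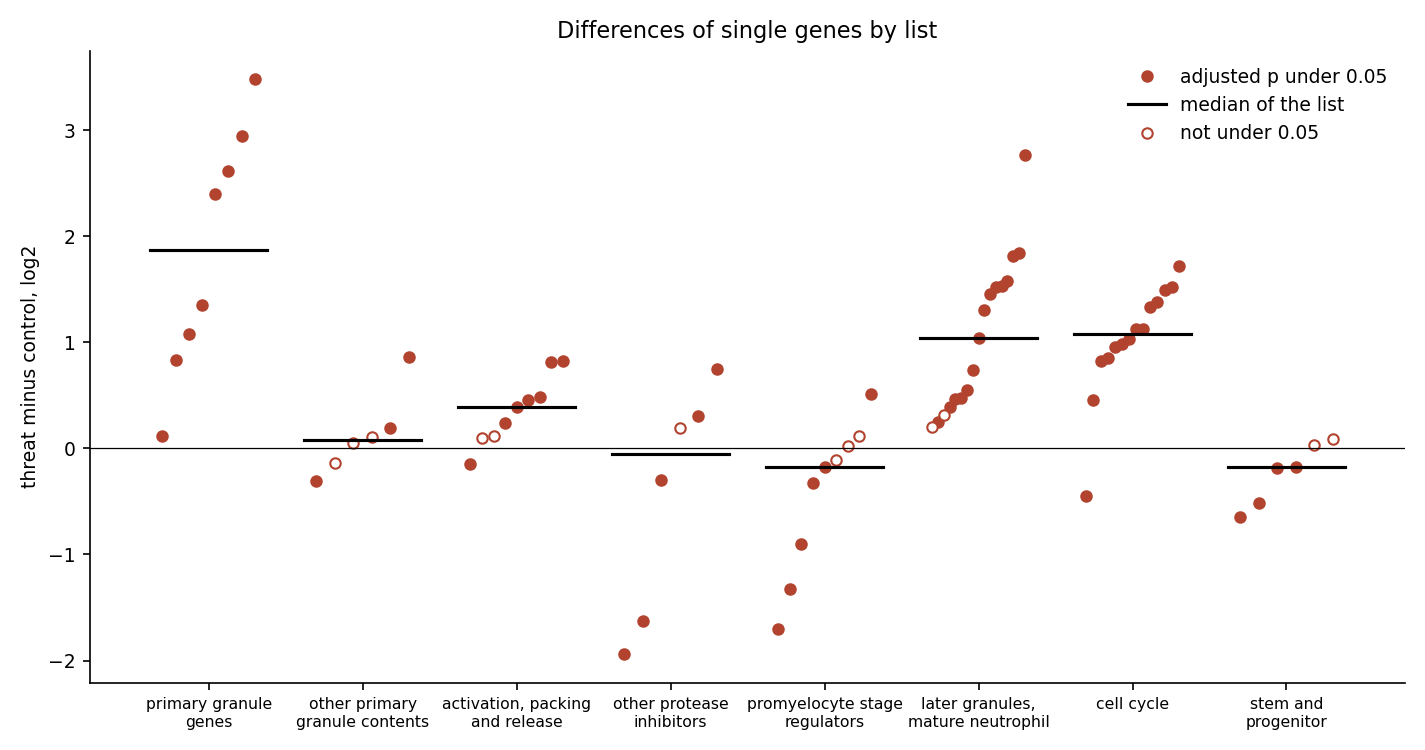
Difference between threat and control (log2) of each tested gene in 8 gene lists; filled points have an adjusted p under 0.05 (limma, Benjamini-Hochberg over 13078 genes), open points do not, and bars are list medians. The median is 1.88 for the primary granule genes, 1.04 for later granule and mature neutrophil genes, 1.08 for cell cycle genes and between -0.18 and 0.39 for the other lists.

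Genes of later neutrophil stages rose in the same arrays. Of 17 genes of secondary and tertiary granules and mature neutrophils, 15 rose and 0 fell, against 23.8% and 22.0% of all genes tested. The median of these 17 genes was 1.04. Their summed level on the linear scale, over all genes of the list with a probe set, was 53230 to 61810 in threat animals and 33960 to 36220 in control pools. Mmp8 was 10.038 to 10.268 in threat animals and 7.462, 7.357 and 7.326 in control pools, and rose by 2.76 (SE 0.060, adjusted p = 2.15e-11). Hp, the haptoglobin gene, rose by 1.82 (SE 0.068, adjusted p = 1.0e-09) and Lcn2, which encodes an iron-scavenging lipocalin, by 1.46 (SE 0.063, adjusted p = 2.59e-09). Ltf rose by 1.04 (SE 0.13, adjusted p = 2.20e-05), S100a8 by 0.39 (SE 0.044, adjusted p = 1.18e-05) and S100a9 by 0.47 (SE 0.043, adjusted p = 1.84e-06).

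Most cell cycle genes rose as well. Of 14 tested, with a median of 1.08, 13 rose and 1 fell, against 23.8% and 22.0% of all genes tested. The mean of the list was 6.318, 6.167, 6.029, 6.013, 5.661 and 5.703 in threat animals 1 to 6 and 5.031, 5.017 and 4.820 in control pools, so that animals 5 and 6 were again the lowest of the threat group. The same held for B cell markers, which were lower in threat than in control: their mean was 5.179, 5.117, 5.031, 4.983, 4.794 and 4.794 in threat animals 1 to 6 and 7.070, 6.866 and 6.960 in control pools. Myb, at 4.888 and 4.721 in animals 5 and 6, was also lowest there. Low values in animals 5 and 6 were thus found outside the primary granule genes too, also in genes that were lower in threat. The summed level of the cell cycle list was 1705 to 2084 in threat animals and 1644 to 1831 in control pools, so that the sums overlapped. Without Pcna, which was 963 to 1032 in threat animals and 1287 to 1432 in control pools, the sums were 674 to 1062 in threat animals and 357 to 399 in control pools and did not overlap. Ube2c, which acts in mitosis, rose by 1.73 (SE 0.14, adjusted p = 7.90e-07), and the mitotic cyclin gene Ccnb2 was 1.53 higher (SE 0.14, adjusted p = 2.54e-06). Pcna, the sliding clamp of DNA replication, fell by 0.45 (SE 0.050, adjusted p = 1.04e-05). The part of dividing or of later-stage cells in the rise of the primary granule genes was not tested.

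Among markers of stem and progenitor cells, 4 of 6 tested genes fell and 0 rose, against 22.0% and 23.8% of all genes tested. The median of these 6 genes was -0.18. Their summed level was 141 to 151 in threat animals and 167 to 190 in control pools. Kit, the stem cell factor receptor, was 3.966 to 4.378 in threat animals and 4.865, 5.005 and 4.745 in control pools, and fell by 0.65 (SE 0.094, adjusted p = 9.99e-05). Flt3 fell by 0.51 (SE 0.085, adjusted p = 0.000292) and Sox4 by 0.18 (SE 0.055, adjusted p = 0.0170), a call lost without control pool 5-6. Sox4 was 0.14 higher when transcript-specific probe sets were preferred. The fourth was Gata2, with overlapping groups and a call lost under 14 of 20 alternatives, among them the omission of any control pool or of threat animal 3, 4, 5 or 6. Hoxa9 and Mycn differed by 0.029 (adjusted p = 0.776) and 0.086 (adjusted p = 0.252). Cd34, Meis1 and Cd27 lay below the filter. Flt3 is also counted among the dendritic cell markers, and Gata2 among those of mast cells and basophils.

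The labelled selection was checked through Itgam, which encodes CD11b. Itgam averaged 8.50 ± 0.070 in threat animals (SD, n = 6) and 7.93 ± 0.026 in control pools (SD, n = 3), a rise of 0.57 (SE 0.051, adjusted p = 1.67e-06). Csf1r, the growth factor receptor of monocytes and macrophages, averaged 11.95 in threat animals and 11.76 in control pools. For the counts that follow, the shares of all genes tested were 23.8% rising and 22.0% falling. Of 8 tested monocyte markers, 4 rose and 2 fell. Their summed level was 8898 to 9711 in threat animals and 8122 to 8656 in control pools. Of 12 macrophage markers, 1 rose and 6 fell, with sums of 5089 to 5864 in threat animals and 5700 to 5938 in control pools. Markers of lymphocytes and dendritic cells were lower in the same arrays. Of 7 B cell markers, 0 rose and 6 fell, with sums of 247 to 342 in threat animals and 1292 to 1509 in control pools. Of 7 natural killer cell markers, 0 rose and 6 fell, with sums of 136 to 147 in threat animals and 525 to 613 in control pools. Of 7 dendritic cell markers, 0 rose and 6 fell (458 to 505 in threat animals, 1188 to 1284 in control pools), and of 6 T cell markers 0 rose and 4 fell (120 to 128 in threat animals, 162 to 171 in control pools). The part of this shift in cell markers in the rise of the primary granule genes was not tested.

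Mast cells, basophils and eosinophils also carry granule proteases or peroxidases. Of 6 tested markers of mast cells and basophils, 1 rose and 2 fell, against 23.8% and 22.0% of all genes tested. With 6 genes these counts do not set the list apart. The sums were 1147 to 1338 in threat animals and 884.9 to 951.2 in control pools. Without Hdc the sums were 56.4 to 64.5 in threat animals and 60.9 to 66.3 in control pools and overlapped. The gene that rose was Hdc, the histidine decarboxylase gene (0.50, SE 0.065, adjusted p = 3.80e-05), which neutrophils express too. Cma1, a mast cell chymase, fell by 0.31 (SE 0.086, adjusted p = 0.0102), a call lost without control pool 1-2, and the transcription factor gene Gata2 by 0.17 (SE 0.065, adjusted p = 0.0463). Cpa3, Fcer1a and Ms4a2 lay below the filter. Of 4 tested eosinophil markers, 0 rose and 3 fell, with sums of 32.5 to 41.0 in threat animals and 47.4 to 55.1 in control pools. Epx, the eosinophil peroxidase gene, and Il5ra lay below the filter.

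Array quality was read from control probe sets. The 3' minus 5' difference of beta-actin, a measure of RNA integrity, was 0.357 ± 0.034 in threat animals (SD, n = 6) and 0.472 ± 0.063 in control pools (SD, n = 3), a difference of -0.12 (exact permutation p = 0.0238, two-sided). For Gapdh the groups were -0.036 apart (exact permutation p = 0.512) and for the mean of the hybridisation spike-ins 0.082 apart (exact permutation p = 0.357). Array medians lay between 3.189 and 3.224. The part of RNA integrity in the differences above was not tested.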

How the data were processed

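Expression was measured on 9 Affymetrix MOE430 arrays, 6 of single threat animals and 3 of control pools of 2 animals, grouped by the stress label. The authors deposited log2 values for every probe set, which come from RMA, per the submitters' processing notes. The RMA version is not given in the sources used here. Base 2 was inferred from the range, 0.607 to 13.567. RMA makes array distributions alike, so a change in total RNA per cell is not seen, and it gives no detection call. Arrays have no read depth, and their number limits the precision. Replicates are separate animals or separate pools, per the labels.

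Of 45101 probe sets, 34945 name 1 gene in the platform annotation. Symbols were updated through a RefSeq table (GRCm38.p6, used for names and neighbours), which matched 34741. A gene was represented by its probe set with the highest mean and tested if that mean reached 2.66, the 40th percentile, which left 13078 of 18193 genes. Threat minus control was fitted with limma 3.58.1 in R 4.3.3 (lmFit and eBayes, two-sided) and adjusted by the Benjamini-Hochberg method at 0.05. SE is limma's moderated standard error. Exact permutation tests used all 84 divisions of the arrays. Promoters came from RefSeq (7 of 8 genes matched). On simulated data with 50 genes changed at each size, 44% of those changed by 0.25 were recovered, 92% at 0.5, 98% at 1 and 100% at 2, with 10 false calls.

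The 8 genes and the 18 other lists were chosen with earlier results of these data known. Genes named with values come from the 3 tested genes of each list with the smallest p, that with the highest mean and, whatever their values, Itgam, Ltf, Mmp8, S100a8 and Lyz1 and the 5 genes nearest to Mpo. Of genes outside this rule, values are given for Rab27a, Myb, Cebpa, Gfi1, Lpo, Ms4a2, Hoxa9 and Mycn, chosen after their values were seen. Alternatives covered the filter, the choice of probe set, normalization, limma settings, the pools, the animal numbers and the omission of each array.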

Additional observations from a re-analysis of the deposited data

Results flagged for a closer look

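Among the 83 genes named or listed with values per array, 2 had a threat animal set apart from the other 5 by Dixon's ratio, its gap to the nearest animal over the whole range, at the 95% critical value. Such ratios arise in about 1 in 20 groups by chance. In Gfi1 the ratio was 0.693: threat animal 6 had 4.191, the next lowest 4.333 and the highest 4.396. In Serpinb2 the ratio was 0.661: threat animal 2 had 6.598, the next lowest 6.871 and the highest 7.011. None of the 8 primary granule genes had such an animal.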

How the results depend on the processing

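Over 21 alternatives the count of all genes that rose ran from 2610 to 3372 and that of genes that fell from 2524 to 2983 (2610 to 3003 and 2524 to 2805 with an array left out). Mpo, Elane, Prtn3, Ctsg, Ms4a3, Fcnb and Serpinb1a kept their direction and call under all 21, so that 7 or 8 of the 8 genes were called (7 in every fit with an array left out). The count was 6 under an added rule, chosen after seeing the data, that also asked for a 2-fold rise. Serpinb1a ran from 0.58 for the mean of its probe sets to 0.91. Its dimmer probe set was not taken alone in any of the 21, and it did not pass (0.33, limma adjusted p = 0.140). The other 7 genes have a single probe set each, so the choice of probe set could not change their difference. Lyz2 lost its call under 16 alternatives. Its difference stayed at 0.12 with no filter (adjusted p = 0.0732), with transcript-specific probe sets (0.0518), with each probe set on its own (0.0551), and with threat animals averaged in number pairs (0.0936). It was 0.10 with quantile normalization (adjusted p = 0.104) and 0.10 with array weights (0.0664). It ran from 0.089 without control pool 5-6 to 0.13 without control pool 3-4 (adjusted p = 0.0521 to 0.163 over the 9 fits with an array left out). The cause was not tested.

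Whether the animal numbers pair the samples is not given by the labels, and the main fit did not use them. Deviations of same-numbered threat animals and pools correlated at 0.15, -0.15 and -0.029 over genes, too few values to decide it. The mean of the 8 genes was 8.301, 8.208, 8.092, 7.970, 7.629 and 7.651 in threat animals 1 to 6. In control pools 1-2, 3-4 and 5-6 it was 6.218, 6.126 and 6.024. Both groups were lower at higher numbers, and the cause was not tested. With a replicate block, 3085 genes rose and 2860 fell, and 7 of the 8 genes were called, with Lyz2 at 0.12 (adjusted p = 0.0696). Under the block limma's adjusted p was smaller for Mpo (7.46e-10, against 1.29e-07 in the main fit), Elane, Prtn3, Ms4a3, Fcnb and Serpinb1a. It was larger for Ctsg (2.04e-07, against 7.46e-08) and Lyz2.

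The direction turned in 4 other genes. Lyz1 was 0.033 with specific probe sets, 0.0047 with median centring, 0.014 without control pool 3-4 and 0.0019 without threat animal 4 (-0.021 to 0.014 with an array left out), and it passed at -0.13 with quantile normalization (adjusted p = 0.0383). Man2b1 was -0.032 for the mean of its probe sets and -0.26 with specific probe sets, Sox4 was 0.14 with specific probe sets, and Gfi1 was -0.018 without control pool 3-4 (up to 0.049 with an array left out). The comparisons of Mpo with 6 other genes kept direction and side of the threshold in all 11 alternatives, with exact p at most 0.0357 for the 5 that passed. Limits are the 3 control arrays, pools set against single animals, and dim probe sets, for which RMA gives no detection call.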

Other observations

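A spleen preparation can also hold platelets and red cell precursors. Of 7 tested platelet and megakaryocyte markers, 5 rose and 1 fell, against 23.8% and 22.0% of all genes tested. The median of these 7 was 0.25. The mean of the list was 5.08 to 5.12 in threat animals and 4.73 to 4.86 in control pools. Gp1bb, a chain of the platelet von Willebrand factor receptor, was 4.11 in threat animals and 2.87 in control pools and rose by 1.23 (SE 0.081, adjusted p = 9.86e-08), or by 0.64 for the mean of its probe sets. Ppbp, the platelet basic protein gene, rose by 0.58 (SE 0.069, adjusted p = 2.11e-05). Itgb3, an integrin chain of platelets and other cells, fell by 0.46 (SE 0.092, adjusted p = 0.00122). Of 6 tested erythroid markers, with a median of -0.13, 1 rose and 2 fell, against 23.8% and 22.0% of all genes tested. With 6 genes these counts do not set the list apart. The sums were 154 to 169 in threat animals and 270 to 305 in control pools. Car2 and Tfrc, at 6.85 and 6.61 in control pools, carried much of them. The brightest of the others, Epor, averaged 4.46 in threat animals and 4.39 in control pools. Sums without Car2 and Tfrc were not made. Car2, a carbonic anhydrase, fell by 1.34 (SE 0.065, adjusted p = 7.53e-09) and Tfrc, the transferrin receptor, by 1.23 (SE 0.071, adjusted p = 3.05e-08). Klf1, a transcription factor of red cell precursors, rose by 0.18 (SE 0.060, adjusted p = 0.0252), but did not pass once pool 1-2 (adjusted p = 0.0870) or pool 5-6 (adjusted p = 0.119) of the control was left out.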
